A study of Mus musculus with 4 samples.

Results

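A group of fibroblasts from mouse long bone that carried transcripts of Scg3, Sema3e, Islr2, Tppp3 and Ociad2 was described in single-cell libraries of 1 young and 1 old mouse. The cells were chosen by measured values. A member had at least 1 unique molecular identifier (UMI, 1 captured RNA molecule) of at least 3 of these 5 rule genes. It also had a UMI of Pdgfra or Clec3b and fewer than 2 UMIs of Pi16, which together are called the gate. Of 15670 cells kept after filtering, 788 were members, 522 of 10063 from the young mouse and 266 of 5607 from the old one. Since the rule read the counts, contrasts between members and other cells are given as descriptions, with no test.

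Both mice were untreated INK-ATTAC animals, whose transgene places a drug-activated caspase 8 behind part of the p16Ink4a promoter. The young mouse was 6 months old and the old mouse 24 months old. Marrow freed with Liberase and bone digested with collagenase were pooled, depleted of blood lineage cells on magnetic beads, stained with an oligonucleotide-tagged CD24 antibody and sorted for live CD45-negative cells. Shares therefore describe sorted cells and not the tissue. With 1 mouse at each age, a difference in age cannot be told apart from a difference between animals or libraries.

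The rule genes have roles that are usually discussed in nerve and endocrine cells or in tendon. Scg3 (secretogranin III) belongs to the granins, proteins of dense-core secretory granules. Sema3e is a secreted semaphorin that acts through plexin D1, and Islr2 is a membrane protein with leucine-rich repeats known from developing axons. Tppp3 is a tubulin-binding protein used as a marker of tendon sheath progenitors, and Ociad2 is a mitochondrial and endosomal protein. Ccn3, a secreted matricellular protein of the CCN family, was not part of the rule. In adventitial and fascial layers, Pi16 and Dpp4 mark fibroblasts that are regarded as a reservoir of more specialised fibroblasts.

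In the RefSeq annotation of GRCm38.p6, the assembly behind the mm10 build that the labels name, Scg3 lies on chromosome 9 at 75643366 to 75685959 and Islr2 on the same chromosome at 58196297 to 58204319. Sema3e lies on chromosome 5 at 14025276 to 14256689 and Ociad2 on that chromosome at 73322198 to 73338947. Tppp3 lies on chromosome 8 at 105467492 to 105471422, and Ccn3 on chromosome 15 at 54745910 to 54753762. The libraries read the 3′ ends of transcripts and so do not separate isoforms.

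Members made up 5.19% of young cells (95% exact Clopper-Pearson interval 4.76 to 5.64) and 4.74% of old cells (4.20 to 5.33). All intervals given here cover counting error only. Of the cells that passed the gate, 8.62% (young) and 7.68% (old) were members. Most members stood at the edge of the rule. In the young mouse 343 members had 3 rule genes, 142 had 4 and 37 had all 5, and in the old mouse the numbers were 146, 81 and 39. Just outside the rule stood 592 young and 257 old gate cells with 2 rule genes. A further 157 young and 133 old cells had enough rule genes but failed the gate, 153 and 125 of them because they had 2 or more Pi16 UMIs.

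Members were deeper than the cells around them. Their median was 10428 UMIs for the young and 15904 for the old mouse, against 6401 and 9846 in gate mates, the cells of the same gate with at most 1 rule gene. A rule that asks for several low genes favours deep cells by construction. When every cell was thinned to 2000 UMIs before the rule was applied, 117 young cells (1.26%) and 46 old cells (0.90%) still met it. Predicted doublets, barcodes that may hold a pair of cells, were 28 (5.36%) of the young and 4 (1.5%) of the old members, against 2.67% and 1.02% of all kept cells. They were retained, and removing them gave shares of 5.04% and 4.72%. The libraries shared 19 barcode sequences, and 0 barcodes were members in both.

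Fibroblast genes were high in members, as in the cells around them. Dcn, a small proteoglycan of fibroblast matrix that the rule did not use, was found in 100% of young and old members, and Col1a1 in 99.4% and 99.2%. All 11 fibroblast markers of the list, which holds the gate genes Pdgfra and Clec3b, were found in at least 10% of members. They were also found in at least 10% of gate mates and of all kept cells, so this count does not set members apart. The same cut gave like counts in members and gate mates for several other lists, but not for all. Endoneurial markers reached it for 8 (young) and 9 (old) of 10 in members and for 8 and 8 in gate mates, periosteal markers for 6 and 6 of 7 in both groups, and tendon markers for 4 and 6 of 10 in members and 5 and 5 in gate mates. Tendon sheath markers, which include the rule gene Tppp3, reached it for 5 and 6 of 9 in members and 5 and 4 in gate mates. Marrow stroma markers reached it for 7 and 8 of 9 against 9 and 9. Counts differed more for osteoblast markers, at 2 and 3 of 9 in members against 6 and 6 in gate mates. Universal fibroblast markers reached it for 13 and 14 of 14 against 12 and 10, and blood markers for 2 and 4 of 11 against 0 and 2. Of 8 Schwann cell markers, S100b and Scn7a reached the cut in members and in gate mates of both mice. Sox10, a defining factor of Schwann cells, was at 0 UMIs in members and gate mates of both mice, so its absence does not set members apart. In members the endothelial genes Cdh5 and Tie1 were at 0 UMIs. The summed level of the 7 endothelial markers was 5.84 CPM in young and 0.646 CPM in old members. CPM here is the UMI sum of a gene scaled to 1000000 RNA UMIs of the group of cells.

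Sema3e, the most often found of the less abundant rule genes, had a UMI in 80.5% of young and 79.3% of old members, at 207 and 191 CPM. Its level in gate mates was 2.51 and 1.41 CPM. Members were chosen for at least 3 rule genes and gate mates for at most 1. Contrasts of rule genes between these groups therefore follow from the rule and are no finding. Scg3 was found in 56.3% and 56.4% of members at 241 CPM (229 to 254, exact Poisson interval) and 163 CPM (152 to 175). Islr2 stood at 87.2 and 66.8 CPM, and Ociad2 at 79.5 and 101 CPM. Tppp3 was found in nearly every member (99.4% and 98.1%) but also in 20.9% and 16.6% of gate mates. Gate mates with a UMI were 0.688% and 0.850% for Scg3 and 1.48% and 1.12% for Sema3e.

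Ccn3 varied with the number of rule genes. It was not one of them, but it was a listed marker of the group, chosen with earlier results of these data known. It was found in 88.7% of young and 85.0% of old members, at 578 CPM (559 to 597) and 476 CPM (456 to 496). Gate mates held 53.9 and 35.1 CPM of it. Over gate cells with 0, 1, 2, 3, 4 and 5 rule genes, Ccn3 was at 28.5, 116, 266, 504, 633 and 907 CPM in the young mouse. The same steps in the old mouse read 15.1, 95, 141, 344, 579 and 681 CPM. Median depth was also higher with 5 rule genes than with 0, at 12567 against 6054 UMIs (young) and 17811 against 9314 (old), and its part in this order was not tested. Thinned to 2000 UMIs, 58.8% of young and 50.4% of old members had a Ccn3 UMI, against 6.96% and 3.56% of gate mates.

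**Figure D1:**
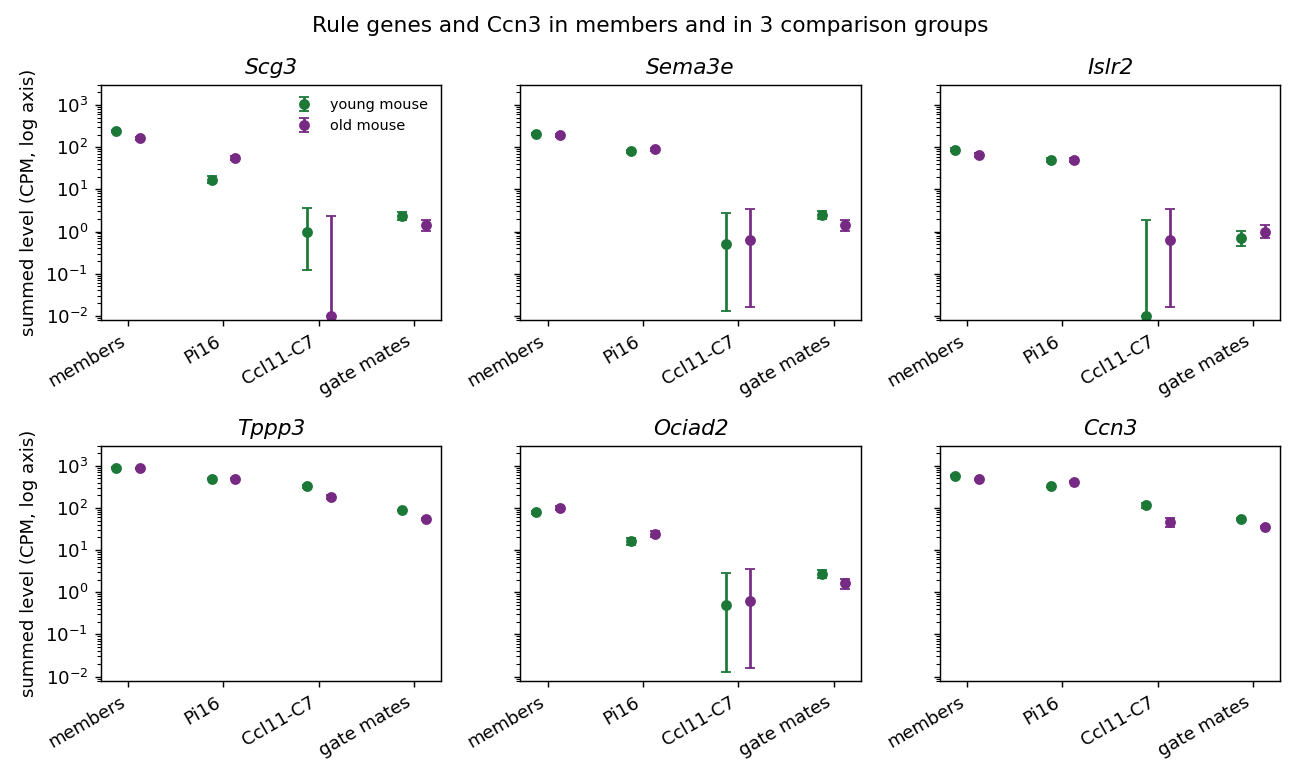
Summed level of each rule gene and of Ccn3 (CPM, log axis) in members, Pi16 fibroblasts, Ccl11-C7 fibroblasts and gate mates, for the young and the old mouse, with exact 95% Poisson intervals; a sum of 0 is drawn at the lower edge. Members were chosen for rule genes, and gate mates and Ccl11-C7 fibroblasts for at most 1 of them, so only Ccn3 was not used by the rule. Ccn3 was still a listed marker of the group, chosen with earlier results of these data known. It sits at 578 and 476 CPM in members and at 326 and 419 CPM in Pi16 fibroblasts.

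Genes that the rule did not use placed the members in more than 1 group. All kept cells of both mice were clustered together without the rule and gate genes, which gave 27 clusters. Cluster 7, led by Hmcn1, Uts2r, Fhl1, Sulf2 and Spon2, held 230 young (44.1%, 39.8 to 48.4) and 125 old members (47.0%, 40.9 to 53.2). Cluster 6, led by Cd55, Sema3c, Efhd1 and Procr and also carrying Dpp4 among its first 10 genes, held 169 (32.4%) and 72 (27.1%). Together these clusters held 76.4% of young and 74.1% of old members, while they made up 13.5% and 9.76% of all kept cells. The rest were spread, with 35 young and 27 old members in cluster 0 (led by Inmt, C7 and Ccl11), 22 and 10 in cluster 17 (led by Ccl7) and 16 and 5 in cluster 19, where 14 and 2 of those members were predicted doublets.

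Members were a part of each cluster and not the whole of it. They made up 38.3% of cluster 7 for the young and 47.0% for the old mouse, and 22.4% and 25.6% of cluster 6. Cluster 6 also held 53.3% of young and 40.4% of old Pi16 fibroblasts. These 705 young and 418 old cells have a UMI of Pdgfra or Clec3b, and the gate excludes them for 2 or more Pi16 UMIs. Cluster 7 held 6.67% and 10.0% of them. Among all kept cells with 2 or more Pi16 UMIs, with or without Pdgfra or Clec3b, 153 young and 125 old ones carried at least 3 rule genes themselves. At a lower resolution the cluster with most members held 82.8% of young and 80.5% of old members. The split was not fixed by the data: at a higher resolution, with fewer principal components or with the rule genes kept, the old members' share of the leading cluster was 28.2%, 15.4% and 28.6%.

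**Figure D2:**
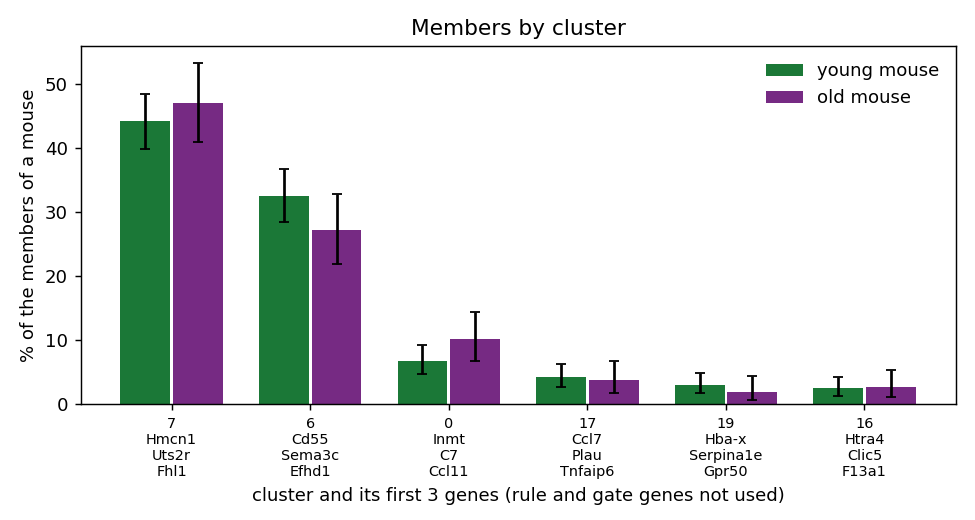
Share of the members of each mouse (%) in the 6 clusters that hold most of them, with exact 95% Clopper-Pearson intervals; cluster numbers stand over the first 3 genes of each cluster. Clusters 7 and 6 hold 76.4% of young and 74.1% of old members.

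The rule genes and Ccn3 were then read over whole clusters, members and other cells alike. The rule genes did not enter the clustering, though genes that vary with them did, so the levels are a description. Sema3e was higher in cluster 6 than in cluster 7, at 196 against 96.2 CPM for the young and 211 against 118 CPM for the old mouse. Ccn3 had the same order, at 603 against 400 CPM and 679 against 401 CPM. Islr2 stood at 74.2 against 55.1 CPM and 80.4 against 46.4 CPM. These 3 genes were higher in the cluster with most Pi16 fibroblasts, with Poisson intervals apart in both mice.

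Ociad2 had the opposite order, at 57.7 CPM in cluster 7 against 29.8 CPM in cluster 6 for the young and 105 against 22.5 CPM for the old mouse. Scg3 did not keep an order. It was higher in cluster 7 in the young mouse, at 173 CPM (163 to 184) against 78.0 CPM (71.0 to 85.5), and the intervals overlapped in the old mouse, at 99.8 CPM (91.1 to 109) against 107 CPM (95.9 to 118). Tppp3 differed little, at 727 CPM (706 to 749) in cluster 7 and 808 CPM (785 to 831) in cluster 6 for the young mouse, and at 767 CPM (743 to 793) and 801 CPM (771 to 832) for the old one. After thinning to 2000 UMIs, 24.7% of young and 29.1% of old cells of cluster 6 had a Sema3e UMI, against 14.4% and 15.8% of cluster 7. The thinned shares for Ociad2 were 4.55% and 3.96% against 10.6% and 13.9%. For Islr2 the thinned intervals met or overlapped, at 14.5% (12 to 17.3) in cluster 6 against 9.40% (7.18 to 12) in cluster 7 (young) and 15.5% (11.4 to 20.3) against 10.9% (7.42 to 15.3) (old). For Ccn3 they overlapped in the young mouse (49.7% in cluster 6, 47.0% in cluster 7) and did not in the old (56.1% and 43.6%).

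**Figure D3:**
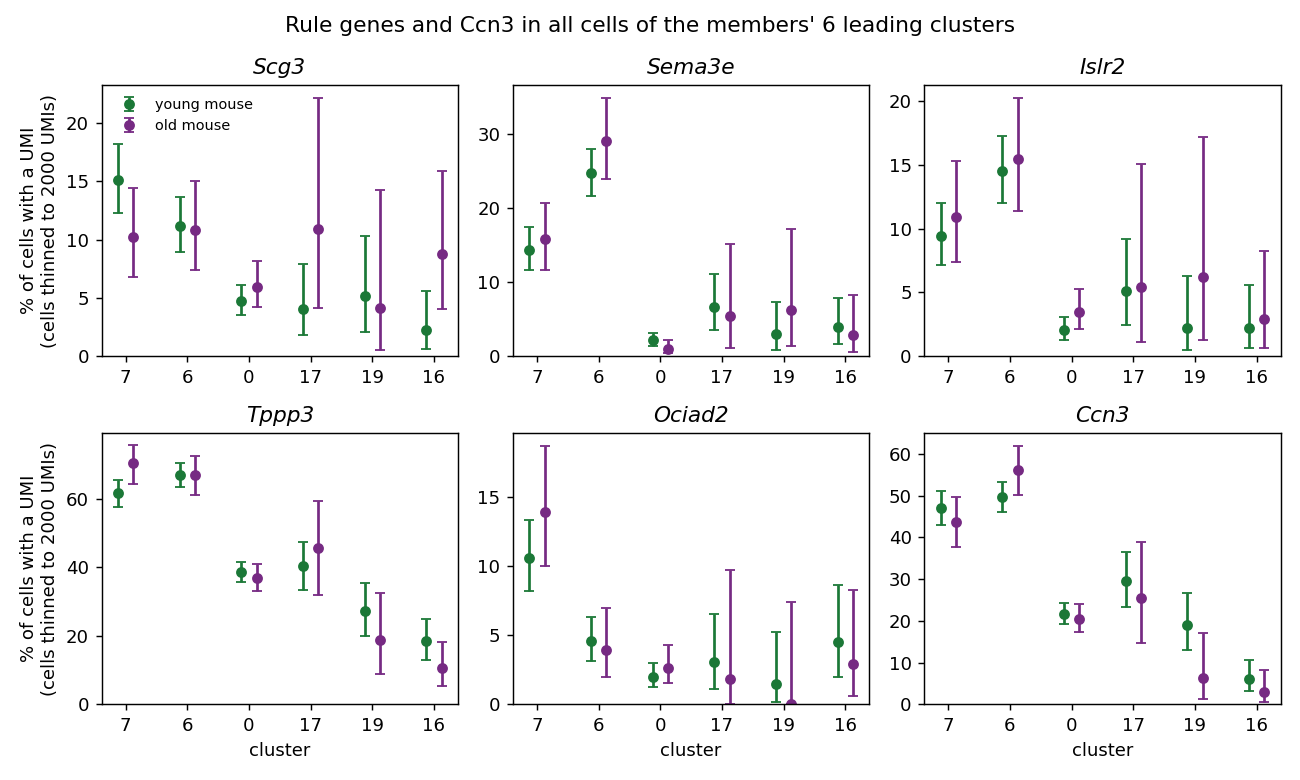
Share of all cells (%) with a UMI of each rule gene and of Ccn3 after every cell was thinned to 2000 UMIs, in the 6 clusters that hold most members, for the young and the old mouse, with exact 95% Clopper-Pearson intervals. Sema3e stands highest in cluster 6 (24.7% and 29.1%) and Ociad2 in cluster 7 (10.6% and 13.9%).

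Among members themselves the same orders held for Sema3e, Ociad2 and Ccn3, and for Islr2 in the old mouse alone. Members were chosen for the rule genes, so levels of those genes among members depend on the rule and, through it, on depth. They are no further support for the orders over whole clusters. Members in cluster 6 held 365 and 343 CPM of Sema3e (young, old) and those in cluster 7 held 174 and 184 CPM. Ociad2 was at 62.2 and 42.3 CPM in members of cluster 6 and at 102 and 150 CPM in those of cluster 7. Ccn3 was at 1019 and 988 CPM against 538 and 405 CPM. Islr2 was at 108 CPM (92.0 to 126) in young members of cluster 6 and 105 CPM (93.5 to 118) in those of cluster 7, and at 120 and 56.0 CPM in old ones. Tppp3 was at 1179 and 1182 CPM in members of cluster 6 against 990 and 921 CPM, with intervals apart in both mice. Scg3 kept no order, at 224 and 186 CPM against 321 and 152 CPM. Median depth differed between the sets as well, at 7994 and 12714 UMIs in members of cluster 6 and 11472 and 18187 in those of cluster 7.

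The rest of the transcriptome separated these sets, which is what the clustering was built on, so the following only says what they contain. By a 2-fold rule in both mice, 163 of 8326 genes (1.96%) were higher in members of cluster 7 and 128 (1.54%) in those of cluster 6. Among 6 tendon genes with enough UMIs, 5 were higher in members of cluster 7: Scx, Thbs4, Fmod, Comp and Cilp. Cilp, a cartilage intermediate layer protein, stood at 459 CPM in young and 640 CPM in old members of cluster 7, against 16.5 and 14.4 CPM. Comp, a matrix protein of tendon and cartilage, stood at 2651 and 3111 CPM against 237 and 36.1 CPM. The periosteal genes Ctsk, Aspn, Mgp and Cthrc1 were higher too, 4 of 6 tested. These contrasts are with members of cluster 6 alone. Summed over the 10 tendon markers, members of cluster 7 held 5002 and 4686 CPM (young, old) and gate mates 4700 and 4235 CPM. Over the 7 periosteal markers the sums were 5115 and 5801 CPM in members of cluster 7 and 7669 and 7403 CPM in gate mates. In members of cluster 6, Cd55 stood at 1135 and 968 CPM against 193 and 102 CPM, and Dpp4, Sema3c and Efemp1 of the 13 tested genes of the universal fibroblast list were also higher there. Has1, a hyaluronan synthase, stood at 422 and 1543 CPM in members of cluster 6 against 160 and 82.3 CPM. No gene of the tendon list was higher in cluster 6 and no gene of the universal list in cluster 7.

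To ask how members differ from other cells of the same gate, they were compared with gate mates. A gene was called where summed CPM, with 5 CPM added, differed at least 2-fold in the same direction in both mice, and where both groups together held at least 30 UMIs of it in each mouse. Rule and gate genes were left out. Of 13844 genes, 303 (2.19%) were higher and 595 (4.30%) lower in members than in the 4941 young and 2941 old gate mates. The median log2 ratio over all genes was -0.10 for the young and -0.12 for the old mouse. Gate mates are a mixture in which marrow stroma and bone genes are high, so a ratio describes them as much as the members.

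Genes of adventitial fibroblasts were higher in members. Of the 13 tested genes of the universal fibroblast list, 10 were higher and 0 lower, with a median log2 ratio of 2.44 for the young and 2.86 for the old mouse. Dpp4, a surface peptidase, stood at 83.9 CPM in young and 74.3 CPM in old members, and at 3.75 and 2.24 CPM in gate mates. Cd55, which restrains complement on the cell surface, stood at 423 and 281 CPM against 30.7 and 17.0 CPM, log2 ratios of 3.58 and 3.70. Sema3c, another secreted semaphorin, stood at 274 and 233 CPM against 30.1 and 17.1 CPM. It was found in 73.9% and 71.4% of members and in 12% and 7.72% of gate mates.

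Matrix genes followed. Tnxb, a tenascin that binds collagen, was at 791 and 716 CPM against 123 and 66.4 CPM, and the proteoglycan Vcan at 649 and 586 CPM against 103 and 67.7 CPM. Fn1 (fibronectin) was at 8012 and 11044 CPM against 1359 and 1512 CPM. Mfap5, a microfibril glycoprotein, and Pcolce2, an enhancer of procollagen processing, had log2 ratios of 2.53 and 2.80 and of 2.82 and 2.97. Of 19 elastic fibre genes, 5 were higher (Fbn1, Fbln2, Mfap5, Ltbp4 and Emilin2) and 4 lower (Fbn2, Fbln5, Ltbp2 and Lox). Against Pi16 fibroblasts, 0 of 18 tested elastic fibre genes were higher and 2 (Fbln1 and Mfap4) lower. Over all genes 0.465% were higher and 0.802% lower there. Fn1 and Pcolce2 were not called against Pi16 fibroblasts. Among 23 collagens tested, Col5a3, Col6a2 and Col14a1 were higher and Col8a2, Col11a1, Col12a1 and Col13a1 lower. Cadm3, a cell adhesion molecule, Efhd1, a calcium-binding mitochondrial protein, and Ackr3, a scavenging receptor for Cxcl12, completed the genes with the largest ratios.

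Marrow stroma and bone genes were lower in members. All 9 marrow stroma genes (Lepr, Adipoq, Cxcl12, Kitl, Ebf3, Hp, Lpl, Esm1 and Gas6) and all 9 osteoblast genes were at least 2-fold lower in both mice, with median log2 ratios of -3.53 and -3.62 and of -3.00 and -3.44. Cxcl12, the chemokine of the blood stem cell niche, stood at 948 and 878 CPM in members against 10996 and 10856 CPM. Kitl, the ligand of Kit, was at 49.4 and 51.7 CPM against 711 and 887 CPM. Mmp13, a collagenase of bone, was at 25.2 and 24.6 CPM against 802 and 759 CPM, and Spp1 (osteopontin) at 331 and 221 CPM against 5203 and 3974 CPM. Camp and Ngp, granule genes of neutrophils, were also among the lowest, and they came from few cells: Ngp was found in 1.03% of young and 3.84% of old gate mates, and 1 cell held 20.7% and 19.2% of its UMIs.

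**Figure D4:**
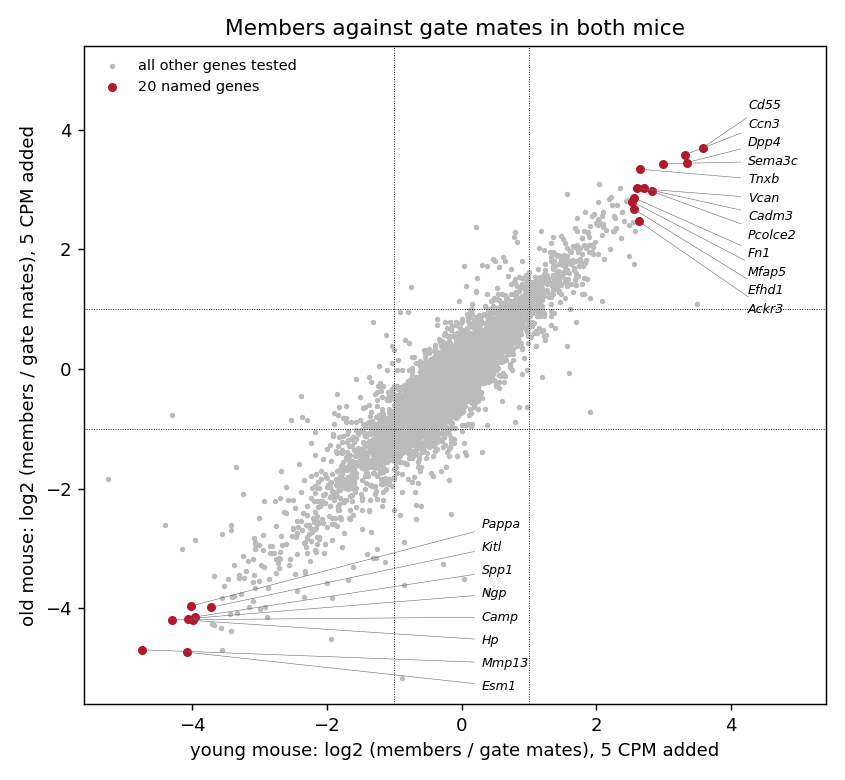
Log2 ratio of members to gate mates in the young (x axis) and the old mouse (y axis) for 13844 genes, with 5 CPM added and dotted lines at 2-fold; the 20 named genes are marked. Cd55 lies at 3.58 and 3.70, and Mmp13 at -4.74 and -4.69.

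Genes related to the rule genes were counted by family. Of 16 secretory granule genes, 5 had enough UMIs for the comparison and 0 were called in either direction. Over all genes 2.19% were higher and 4.30% lower than in gate mates, so 0 of 5 is near that share. Chga and Chgb, the chromogranins, had 0 UMIs in members of both mice, and Scg2 had 2 in young and 0 in old members. A count of 0 allows up to 3 counts. Cpe, a carboxypeptidase of secretory granules, was at 63.2 and 63.5 CPM in members and at 120 and 169 CPM in gate mates. Pam, which amidates peptides in granules, was at 666 and 579 CPM against 580 and 394 CPM.

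Of 12 tested semaphorin pathway genes besides the rule genes, Sema3c was higher and the receptors Nrp1, Nrp2, Plxna2 and Plxnd1 were lower. Plxnd1, the receptor of Sema3e, stood at 13.5 and 14.6 CPM in members and at 67.8 and 70.6 CPM in gate mates. Nrp1 stood at 85.7 and 104 CPM against 264 and 291 CPM. Among 27 other genes of axon guidance and neurotrophins, Ntn1, Ntn4 and Ntrk3 were higher and Slit2, Unc5b, Efna5, Efnb1 and Epha3 lower. Netrin 1 (Ntn1), a secreted guidance protein, was found in 83.1% and 91.0% of members, at 219 and 210 CPM against 58.5 and 38.5 CPM. Of the CCN family, Ccn3 was higher while Ccn1, Ccn2 and Ccn4 were lower, Ccn2 at 138 and 254 CPM against 425 and 595 CPM. Among transcription factors of connective tissue, Osr1, Osr2, Creb5, Klf4 and Ebf2 were higher and 9 of 45 lower, among them Runx2, Sp7 and Ebf3. Creb5 was found in 91.2% of young and 91.7% of old members and in 23.0% and 19.8% of gate mates. Igfbp6, which binds insulin-like growth factor II, was at 2889 and 2748 CPM against 879 and 470 CPM, and Cdkn1a, the cell-cycle inhibitor p21, at 426 and 337 CPM against 210 and 163 CPM. In the same lists Igf2, Igfbp3 and Igfbp4 were lower, 3 of 10 tested genes of the IGF axis. Lower too were Cdkn1c and Bcl2, a regulator of apoptosis resistance, 2 of 12 genes listed under cell-cycle inhibitors and p53. Against Pi16 fibroblasts, 0 of 11 tested semaphorin pathway genes and 0 of 22 other guidance and neurotrophin genes were called. Calls were also 0 among 42 transcription factors and 9 IGF axis genes. Over all 10974 genes tested, 0.465% were higher and 0.802% lower than in Pi16 fibroblasts, so 0 calls in lists this short are near that share. The calls against gate mates in these lists were not seen against Pi16 fibroblasts. Of 5 CCN genes Ccn4 was higher than in Pi16 fibroblasts, and of 10 genes listed under cell-cycle inhibitors and p53 Cdkn1c was lower.

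Members were next compared with Pi16 fibroblasts. Of 10974 genes, 51 (0.465%) were higher and 88 (0.802%) lower in members than in the 705 young and 418 old Pi16 fibroblasts. These calls depended on each mouse: the higher count was 131 in the old mouse alone and 84 in the young mouse alone. Pi16 fibroblasts, taken without regard to the rule genes, held 79.4 and 89.0 CPM of Sema3e. Ccn3 was at 326 and 419 CPM in them. Aqp1, a water channel, was the clearest difference, at 399 and 469 CPM in members against 60.4 and 74.6 CPM, and was found in 66.9% and 71.8% of members against 21.6% and 23.4%. Spon2, a secreted matrix protein, Mamdc2 and Cav1, the main protein of caveolae, were higher with log2 ratios of 1.87 and 2.05, of 1.89 and 1.70 and of 1.38 and 1.40. Lrrc15, a marker of matrix-producing fibroblasts, was at 49.2 and 91.1 CPM against 3.36 and 31.0 CPM, and was found in 13.4% and 33.8% of members.

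Several of the genes with the largest ratios to Pi16 fibroblasts came from few cells. In the old mouse 94.5% of the Bglap UMIs of members lay in 1 cell, and in the young mouse 58.2% did. When members of clusters 7 and 6 alone were used, a check added after seeing the data, the smaller log2 ratio of Bglap was -0.45. Tac1, the gene of substance P, was found in 3.07% and 6.39% of members, with 59.3% and 56.0% of its UMIs in 1 cell. Il1rl1, the interleukin 33 receptor, was found in 2.30% and 5.26%. The genes lower in members were led by 7 of neutrophils (Ngp, Camp, S100a8, S100a9, Lcn2, Retnlg and Ltf), of which 1 Pi16 fibroblast held between 31.4% and 57.5% of the UMIs among young and between 21.2% and 41.6% among old cells. C7, a complement component, was spread over cells, in 46.1% and 55.3% of Pi16 fibroblasts against 11.9% and 13.9% of members, and stood at 41.9 and 36.2 CPM in members against 223 and 309 CPM. Of the 13 tested universal fibroblast genes Penk alone was called, and it was lower in members. Col3a1, Col6a2 and Col6a3 were higher of 22 collagens, Col3a1 at 8125 and 12065 CPM against 4043 and 5506 CPM.

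Against Ccl11-C7 fibroblasts, gate cells with at least 2 of Col6a5, Ccl11 and C7 and at most 1 rule gene (257 young, 139 old), 210 of 10062 genes (2.09%) were higher and 190 (1.89%) lower in members. That definition sets a limit on the rule genes there, so their counts are no finding. Islr2 had 0 UMIs in young and 1 in old Ccl11-C7 fibroblasts, and Scg3 had 2 and 0. Tppp3 was present, at 327 and 181 CPM against 911 and 870 CPM in members. Anxa8, an annexin, stood at 305 and 229 CPM in members against 31.1 and 12.6 CPM, and Foxd1, a forkhead transcription factor, at 130 and 117 CPM against 13.6 and 1.26 CPM. Lrrc15 had 423 UMIs in old members and 0 in old Ccl11-C7 fibroblasts, at least 48.4-fold higher against a floor of 3 counts. In the young mouse it had 295 against 1, a ratio of 97.9 with a counting interval of 17.4 to 3881. Tnfrsf11b (osteoprotegerin), a decoy receptor of the osteoclast factor Rankl, stood at 34.3 and 38.1 CPM against 2.01 CPM and 0 UMIs.

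Genes lower in members than in Ccl11-C7 fibroblasts included signalling factors. Penk, the precursor of enkephalins, stood at 41.9 and 48.9 CPM in members against 418 and 410 CPM. Fst (follistatin), an inhibitor of activins, was at 66.7 and 93.9 CPM against 467 and 572 CPM, and Bmper, a regulator of BMP signals, at 10.0 and 15.3 CPM against 88.9 and 159 CPM. Ntf3, a neurotrophin, was at 4.5 and 3.45 CPM against 47.2 and 50.8 CPM. The metabolic enzymes Gsta3, Adh1 and Inmt were lower too. C3, the central complement component, stood at 691 and 755 CPM in members against 2102 and 2448 CPM.

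CD24 surface protein was measured by the antibody and did not enter the rule. A cell was called CD24+ above a threshold set on each library (312 counts in the young, 396 in the old mouse). By it, 45 of 522 young members (8.62%, 6.36 to 11.4) and 12 of 266 old members (4.51%, 2.35 to 7.75) were CD24+. In gate mates the shares were 8.74% (7.97 to 9.57) and 6.56% (5.69 to 7.52), so that the intervals of members and gate mates overlapped in each mouse. Among all kept cells 15.6% and 13.6% were CD24+. The median antibody count of members was 97.0 and 93.5, against 85.0 and 90.0 in gate mates. Per 10000 RNA UMIs of a cell the order turned, with medians of 98.3 and 65.3 in members and 140 and 97.6 in gate mates. Cd24a mRNA was found in 6.13% of young and 2.26% of old members. With 2 mice, 1 at each age, no exact test of these shares can reach 0.05. The threshold mattered: one set on gate cells alone called 30.3% of young and 24.4% of old members CD24+.

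Old and young members were set side by side to ask how the group looked at each age. Of 11129 genes, 51 (0.458%) were at least 2-fold higher and 67 (0.602%) at least 2-fold lower in old members, with no replicate of either age. The median log2 ratio was -0.02. The rule's own genes and Ccn3 had the levels given above. In many called genes 1 member held a large part of the UMIs. For 22 of the higher and 37 of the lower genes, a single member held over 20% of the UMIs in the mouse where the gene was higher. S100a8 and S100a9, neutrophil genes, had log2 ratios of 4.01 and 3.70, and 1 old member held 92.8% and 92.6% of their UMIs. Cytl1, a secreted factor of cartilage and blood progenitors, was at 160 CPM in young and 1.08 CPM in old members, in 27 and 5 cells. Car1, a carbonic anhydrase of red cells, was at 145 and 5.60 CPM, in 33 and 20 cells. For Car1 the log2 ratio was 0.15 in members of clusters 7 and 6 alone.

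Some genes differed in summed level with age and had UMIs in many members. Old members were deeper (median 15904 against 10428 UMIs), so counts of members with a UMI are not matched for depth. Nr4a2, an immediate early nuclear receptor, was at 180 CPM in young and 47.8 CPM in old members. It was found in 186 of 522 young and 95 of 266 old members, a like share. Pax9, a transcription factor of skeletal patterning, was found in 137 young and 28 old members, with a log2 ratio of -1.66. Cxcl14, a chemokine, was at 162 CPM (152 to 173) in young and 511 CPM (491 to 532) in old members, and Mmp2, a gelatinase, at 511 and 1079 CPM. Periostin (Postn), a matrix protein of periosteum, was at 852 CPM in young and 385 CPM in old members. It was found in 170 of the 522 young and 110 of the 266 old members. Nr4a2 and Pax9 were also lower in old gate mates, with log2 ratios of -1.13 and -1.17 there against -1.81 and -1.66 in members. The log2 ratios of Cxcl14, Mmp2 and Postn were 1.63, 1.07 and -1.14 in members and 0.45, 0.21 and -0.47 in gate mates. Barx2, a homeobox factor, was found in 14 young and 47 old members, at 3.33 and 34.2 CPM.

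Further genes passed 2-fold in the same direction in both groups. Gm8797, a gene model whose reads may be shared with near-identical copies, had log2 ratios of -3.58 in members and -3.56 in gate mates. Igkc, an immunoglobulin chain made by B lineage cells, was found in 7 young and 118 old members, with log2 ratios of 2.20 and, in gate mates, 7.76. Its source was not tested. Of the 51 higher genes, 7 were also at least 2-fold higher in old gate mates, and of the 67 lower genes 14 were also at least 2-fold lower, while 12 and 14 had the opposite sign there.

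Cdkn2a, which encodes p16Ink4a and p19Arf, not separable by 3′ reads, had 4 UMIs in 3 young members and 40 UMIs in 13 old members (0.667 and 8.62 CPM). It had 2.67 and 11.8 CPM in gate mates, with log2 ratios of 1.26 in members and 1.13 in gate mates. One old member held 22.5% of its UMIs. Il6, an inflammatory cytokine, was at 65.7 and 163 CPM, in 54 of 522 young and 54 of 266 old members. Its log2 ratio was 1.25 in members and -0.08 in gate mates. Its UMIs lay unevenly over the members. Of 394 UMIs in young members, 68 lay in those of cluster 6 and 54 in those of cluster 7, and of 756 in old members 435 and 6, with the rest in members of other clusters. Of 16 listed immediate early genes, which do not include Nr4a2, and 13 proliferation genes, 0 were called with age. Over all genes 0.458% were higher and 0.602% lower in old members, so 0 calls in lists this short are near that share. Of 12 genes listed as cell-cycle inhibitors and p53-related genes, Cdkn2a alone was called.

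**Figure D5:**
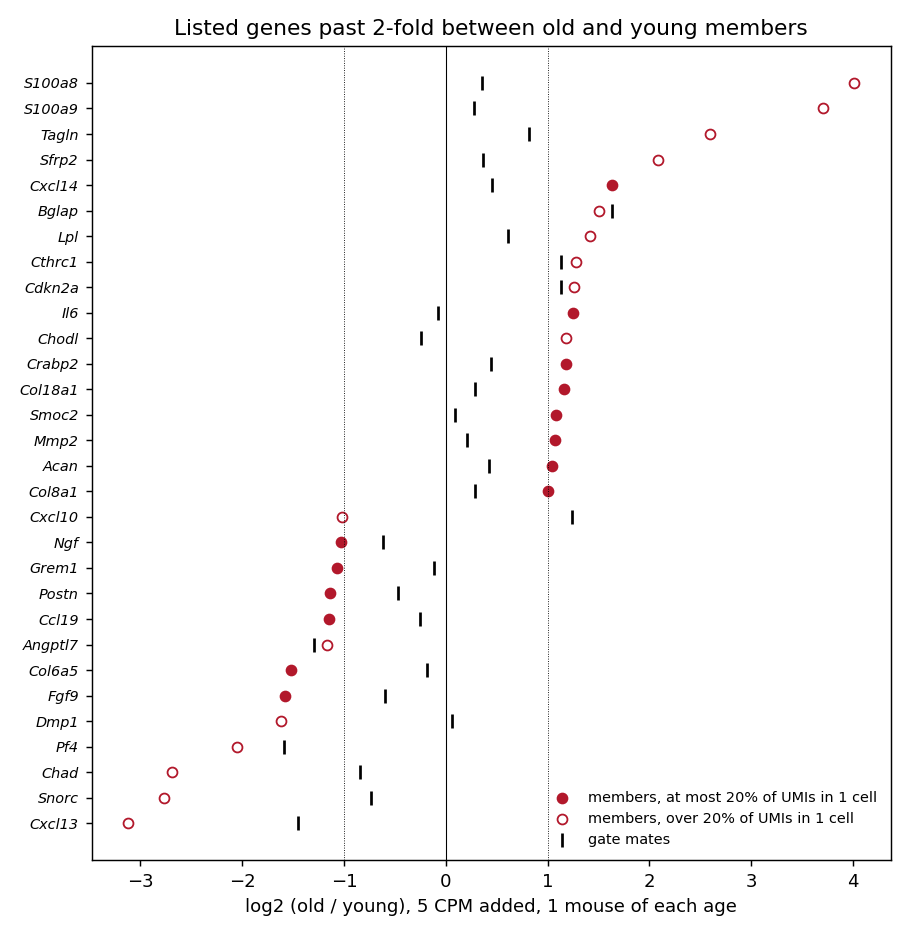
Log2 ratio of old to young (5 CPM added, 1 mouse at each age) for genes of the fixed lists that passed 2-fold in members, in members (circles, open where 1 member holds over 20% of the UMIs) and in gate mates (bars), with dotted lines at 2-fold. Cxcl14 lies at 1.63 in members and 0.45 in gate mates, and S100a8 at 4.01 and 0.36.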

How the data were processed

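CITE-seq measured RNA and CD24 antibody UMIs in cells of femur and tibia of 1 young and 1 old mouse. The values are counts as deposited by the authors: UMIs per gene and cell from Cell Ranger (6.1.1 per the file headers, mm10 per the labels), 32285 genes and 1 antibody, without normalization. UMIs count molecules once, yet free RNA in a droplet is counted with the cell. Cells with under 200 genes or over 20% mitochondrial UMIs were left out, as in the study, leaving 81076421 RNA UMIs in young and 66702846 in old cells. The members, gene lists and comparisons were chosen with earlier results of these data known.

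UMIs were summed per mouse and group and scaled to CPM. Ratios used 5 CPM added, and a call needed 2-fold in both mice and 30 UMIs. Shares have exact Clopper-Pearson and sums exact Poisson intervals at 95%. Doublets were called with Scrublet (scanpy 1.11.5). Clustering used 3000 variable genes centred by library, 30 principal components, 20 neighbours and Leiden resolution 0.8 (leidenalg 0.10.2) without the 8 rule and gate genes. The CD24 threshold was Otsu's on log(1 + count) (scikit-image 0.26.0). TMM factors came from edgeR 4.0.16. Named genes were the 12 highest and 8 lowest called in both mice by the smaller ratio, with age the 8 highest and 8 lowest with 50 UMIs and intervals apart, plus listed genes. The comparison of clusters 7 and 6, and the age genes spread over many members, were chosen after values were seen. Results that need certain withheld genes are not reported here.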

Additional observations from a re-analysis of the deposited data

Results flagged for a closer look

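Cxcl10, an interferon-induced chemokine, was the 1 listed gene that passed 2-fold in opposite directions in the mice, among 3 of 10974 genes tested that did so against Pi16 fibroblasts. Its log2 ratio of members to Pi16 fibroblasts was 1.21 in the young mouse, from 133 UMIs in 18 members and 44 UMIs in 16 Pi16 fibroblasts. In the old mouse it was -1.87, from 39 UMIs in 9 members and 245 UMIs in 31 Pi16 fibroblasts. One cell held 23.3% of the UMIs of young members and 53.8% of those of old members. The difference between the mice was not tested.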

How the results depend on the processing

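Shares rested on depth and on the rule. Member shares (main 5.19% young, 4.74% old) were 11.1% and 9.33% with 2 of 5 rule genes, 1.78% and 2.14% with 4, 8.17% and 6.4% with Ccn3 in place of Ociad2, and 1.26% and 0.90% after thinning. The share of members in the cluster with most of them (44.1%, 47.0%) was 82.8% and 80.5% at resolution 0.4, 50.4% and 28.2% at resolution 1.2, 49.6% and 15.4% with 15 principal components, and 28.6% in the old mouse with rule genes kept. CD24+ shares (8.62%, 4.51%) were 30.3% and 24.4% with a threshold from gate cells. In the young mouse they were 5.94% with the other library's threshold and 5.56% per RNA UMI.

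Against gate mates (303 higher, 595 lower), 20 CPM gave 172 and 271, 1 CPM gave 1246 lower, and mates with 0 rule genes gave 456 higher. Leaving out 1 mouse gave 352 to 457 higher and 719 to 906 lower. Against Pi16 fibroblasts (51, 88), 20 CPM gave 18 and 31, 1 mouse gave 84 to 131 and 145 to 246, and members of clusters 7 and 6 alone, a setting chosen after seeing the data, gave 187 lower. Against Ccl11-C7 fibroblasts (210, 190), 20 CPM gave 105 and 94, thinning 132 and 90, and 1 mouse 300 to 481 and 267 to 403. With age (51, 67), 1 CPM gave 116 and 182, 20 CPM gave 23 and 20, and a minimum of 100 UMIs gave 38 lower. Of 529 values of named genes under alternatives, 271 stayed within the spread between the mice (for age, the counting interval), 256 kept their sign but moved beyond it and 2 changed sign, both with members of clusters 7 and 6 alone: Bglap against Pi16 fibroblasts (-0.45) and Car1 with age (0.15). The cause was not tested. Contrasts between groups of cells were taken within each mouse and so are matched by mouse. No paired analysis was possible because, for age, each group holds 1 mouse, and no result comes from a test.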
